A study of Mus musculus with 4 samples.

Results

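Nkg7 and 4 further genes of cytotoxic granules, Ctsw, Gzma, Prf1 and Lamp1, were followed in mouse lung cells labelled T helper 2 (Th2) cells. They were taken from the authors' deposited table by gene symbol, and all 5 were found among its 11883 genes. The genes were chosen by their deposited means, ratios and p-values in the comparison of the genotypes, in which Nkg7 had the second smallest p of the table. Their differences between the genotypes are therefore a description and carry no test.

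The cells came from C57BL/6 mice that received papain chronically; papain is a protease from papaya that causes allergic inflammation of the airways. From digested lung, live CD4+ cells bearing T1/ST2, the receptor of interleukin-33, were sorted. The 4 samples were 2 of genotype Klrg1Cre Gata3(fl/fl), called Klrg1Cre below, and 2 of genotype Gata3(fl/fl), called control. All 4 samples carried floxed Gata3, the gene of the factor that specifies Th2 cells, and all were exposed to papain. Cre acts only in cells that express it or descend from cells that did, and no sample carried Klrg1Cre without floxed Gata3, so effects of the Cre allele and of any loss of Gata3 cannot be told apart. The deposited columns are headed ILC2 deficient and WT, ILC2 being group 2 innate lymphoid cells, and these were taken as Klrg1Cre and control since the mice that lack Cre serve as the control, a link that the labels do not spell out. An effect of missing ILC2 on the Th2 cells cannot be told apart from one within them either. The labels do not say whether samples came from separate mice, so the authors' p-values measure a spread between samples that may be technical.

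Cytotoxic granules are lysosome-like vesicles of natural killer (NK) cells and cytotoxic T cells. They hold perforin, which forms pores in the membrane of a target cell, and granzymes, serine proteases that enter through these pores and start cell death. On contact with a target the granules move along microtubules to the contact site and fuse with the plasma membrane, which brings lysosomal membrane proteins to the cell surface. NKG7 is a protein of the granule membrane that in mice takes part in granule release by NK and CD8 T cells. Th2 cells are known for cytokine secretion rather than for killing.

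The stretch before the transcription start is shown for 4 of the 5 genes, those matched in the RefSeq promoter table for GRCm38.p6, because one of them was higher in Klrg1Cre, others had lower means and Lamp1 had nearly equal means. Each sequence is 250 bases long and runs from 5′ to 3′ on the strand of the gene up to the start. It lies at chr7:43436888-43437137 on the plus strand for Nkg7 and at chr13:113100982-113101231 on the minus strand for Gzma. For Prf1 it lies at chr10:61297586-61297835 and for Lamp1 at chr8:13158911-13159160, both on the plus strand. Capitals mark matches, on either strand, to TGTGGT (bound by RUNX factors, printed as ACCACA on the other strand), GTGTGA (T-box factors), GATAA (GATA factors) and CACGTG (factors such as TFEB), the last added after the sequences had been seen.
Nkg7: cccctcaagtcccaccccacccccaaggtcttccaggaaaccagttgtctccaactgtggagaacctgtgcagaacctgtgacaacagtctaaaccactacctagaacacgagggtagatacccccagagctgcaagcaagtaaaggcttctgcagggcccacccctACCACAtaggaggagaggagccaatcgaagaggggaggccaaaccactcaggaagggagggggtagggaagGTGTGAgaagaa
Gzma: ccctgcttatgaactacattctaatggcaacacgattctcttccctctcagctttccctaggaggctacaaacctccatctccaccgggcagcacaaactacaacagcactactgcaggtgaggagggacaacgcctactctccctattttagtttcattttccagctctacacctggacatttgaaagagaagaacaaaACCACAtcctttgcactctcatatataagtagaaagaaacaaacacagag
Prf1: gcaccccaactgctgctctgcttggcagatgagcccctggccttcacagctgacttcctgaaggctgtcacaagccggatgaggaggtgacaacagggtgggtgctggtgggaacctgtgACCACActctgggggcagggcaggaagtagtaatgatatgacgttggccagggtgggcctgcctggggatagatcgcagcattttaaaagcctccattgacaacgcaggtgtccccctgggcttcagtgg
Lamp1: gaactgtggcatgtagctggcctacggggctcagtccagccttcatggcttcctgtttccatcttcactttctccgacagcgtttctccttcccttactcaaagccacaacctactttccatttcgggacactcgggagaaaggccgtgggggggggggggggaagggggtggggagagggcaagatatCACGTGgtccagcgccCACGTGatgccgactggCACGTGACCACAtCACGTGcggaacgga

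TGTGGT was found in all 4 of these stretches, each time on the other strand, and in 14.0% of the 32851 stretches of the same length in the RefSeq table. It began 83 bases before the start in Nkg7, 50 in Gzma, 130 in Prf1 and 22 in Lamp1. GTGTGA was found in Nkg7 alone of the 4, beginning 12 bases before the start, and in 12.3% of all stretches. GATAA, found in 22.6% of all stretches, matched in 0 of the 4. Lamp1 held 4 copies of CACGTG within 61 bases of its start, where 6.02% of all stretches hold at least 1. In Lamp1 the TGTGGT match directly follows a CACGTG match, and no matches overlap. These matches describe the letters only.

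Values are in CPM, the reads of a gene scaled to all reads of its library. The deposited table gives 1 mean per genotype, and for about 45.0% of genes the whole reads of each library could be worked out from it, including Nkg7, Ctsw, Gzma and Prf1. The libraries held 26019065 and 14564426 reads in Klrg1Cre and 33379572 and 31961572 in control, and are called larger and smaller within their genotype. Rn45s, the ribosomal RNA precursor, took 67.1% of the reads in Klrg1Cre and 51.4% in control, while the other listed genes took 18.2% and 17.8%. The T cell markers checked, 8 of 8 listed, summed to 1019.9 CPM in Klrg1Cre and 1046.9 CPM in control, the highest of them being Lck. Gata3, the floxed gene and the highest of 5 Th2 markers, averaged 294 CPM in the deposited Klrg1Cre column and 221 CPM in the control column, with an authors' unadjusted p of 0.0115 and an adjusted p of 0.551. Its level was thus not lower in the sorted Klrg1Cre cells. Which part of Gata3 is floxed is not given in the sources used here, and reads outside that part would not show its loss.

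Nkg7 was higher in the sorted cells of Klrg1Cre mice. The larger Klrg1Cre library held 1527 Nkg7 reads, or 58.7 CPM, and the smaller one 638 reads, or 43.8 CPM. The control libraries held 373 and 458 reads, or 11.2 and 14.3 CPM, the larger library first. Both Klrg1Cre libraries thus lay above both control libraries, and the lower of them was 3.06 times the higher control library. The spread within a genotype was smaller, 1.34-fold between the Klrg1Cre libraries and 1.28-fold between the control libraries. Each library's exact 95% Poisson interval, which covers counting error only, stayed apart from those of the other genotype: the lowest bound in Klrg1Cre was 40.5 CPM and the highest in control 15.7 CPM. In the authors' deposited table Nkg7 averaged 51.2 CPM in Klrg1Cre, against 12.8 CPM in control, a ratio of 4.02 with an adjusted p of 0.0112, which is one of the values that brought Nkg7 into the set. Of the 6300 genes that averaged 5 CPM or more over both genotypes, 0 had a higher ratio than Nkg7. Over all 11883 genes 108 had a higher ratio, 11 of them with an average of 1 CPM or more. The most abundant of these was Matn2, a matrilin gene, at 7.45 CPM in Klrg1Cre cells and 0.665 CPM in control cells, a ratio of 11.2 with an authors' adjusted p of 0.0112. In sorted bulk RNA, more cells that contain a transcript, of whatever type, and more transcript per cell cannot be told apart.

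**Figure D1:**
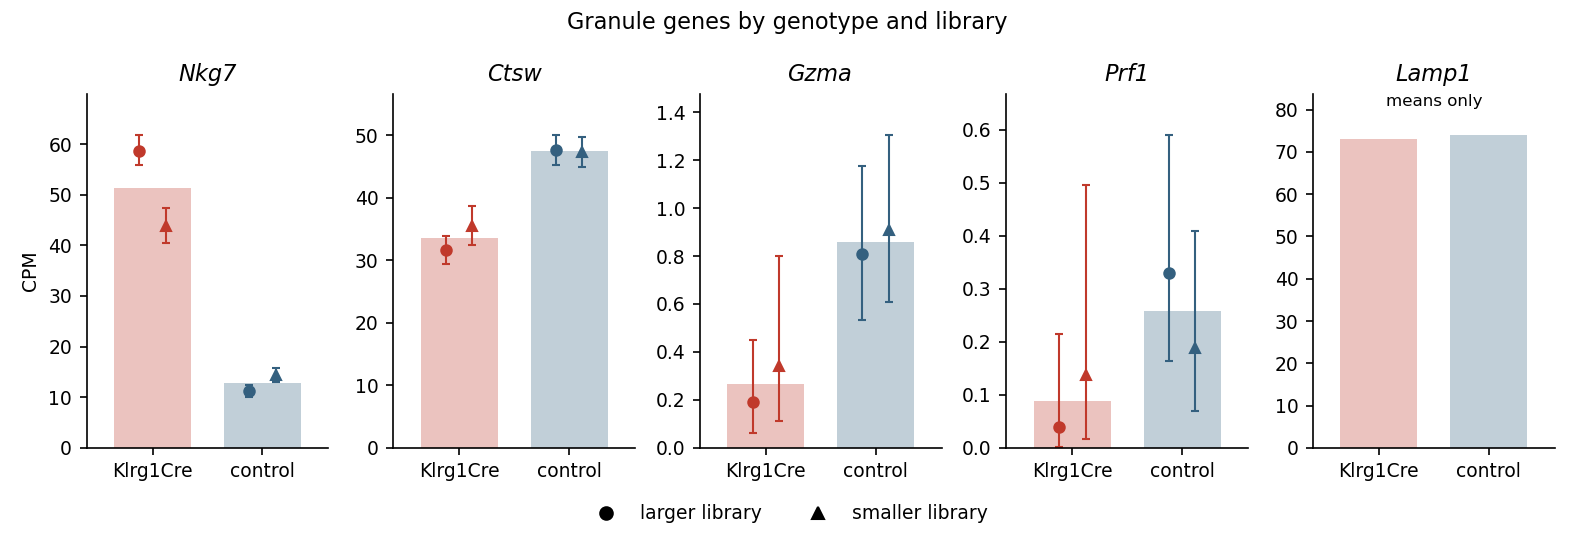
Level of each granule gene in CPM, with Klrg1Cre left of control. Bars are the deposited means, circles the larger and triangles the smaller library of a genotype with exact 95% Poisson intervals, and each gene has its own axis from 0. Of the 4 genes with known libraries, Nkg7 is the only one whose Klrg1Cre libraries lie above its control libraries. Lamp1 has means only.

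Prf1, which encodes perforin, was near the bottom of the table. The larger Klrg1Cre library held 1 Prf1 read and the smaller one 2, against 11 and 6 reads in the larger and smaller control libraries. In CPM these were 0.0384 and 0.137 in Klrg1Cre, against 0.330 and 0.188 in control. The libraries of the genotypes did not overlap, but their Poisson intervals did, reaching 0.496 CPM in the smaller Klrg1Cre library and down to 0.0689 CPM in the smaller control library. Over both libraries together, 3 reads in Klrg1Cre against 17 in control gave a ratio of 0.284 with an exact 95% interval of 0.0533 to 0.982 for counting error alone. The authors' adjusted p was 0.816. Just 136 of the 11883 genes had a lower mean than Prf1, and the fewest reads of any gene with known libraries were 12, against 20 for Prf1. A filter on low totals, if the authors applied one, would have kept Prf1 mainly through its control reads.

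Gzma encodes granzyme A, a granule protease of NK cells and cytotoxic T cells. It had 5 reads in each Klrg1Cre library, or 0.192 CPM in the larger and 0.343 CPM in the smaller. The control libraries held 27 and 29 reads, or 0.809 and 0.907 CPM. Klrg1Cre thus lay below control in every library, at low read numbers. The Poisson interval of the smaller Klrg1Cre library reached 0.801 CPM, above the lowest control bound of 0.533 CPM. Over both libraries, 10 reads in Klrg1Cre against 56 in control gave a ratio of 0.288, with an exact 95% counting interval of 0.131 to 0.569. The deposited means, 0.268 CPM in Klrg1Cre against 0.858 CPM in control, are 3.20-fold apart, with an unadjusted p of 0.0450 and an adjusted p of 0.698. Cdc20b overlaps Gzma in the RefSeq annotation and is not among the listed genes, and whether the authors counted by strand is not given in the sources used here.

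Ctsw encodes cathepsin W, a cysteine protease found mainly in NK and CD8 T cells. The Klrg1Cre libraries held 822 and 516 reads, or 31.6 CPM in the larger and 35.4 CPM in the smaller. The control libraries held 1588 and 1513 reads, or 47.6 and 47.3 CPM. The genotypes did not overlap, and Ctsw was lower in Klrg1Cre by a smaller fold than Gzma and Prf1, with far more reads behind it. The highest Poisson bound in Klrg1Cre was 38.6 CPM and the lowest in control 45.0 CPM. The deposited means were 33.5 CPM in Klrg1Cre cells and 47.5 CPM in control cells, lower 1.42-fold in Klrg1Cre, with an unadjusted p of 0.00493 and an adjusted p of 0.412. Fibp overlaps Ctsw in the RefSeq annotation, and its own deposited means were 8.47 CPM in Klrg1Cre against 8.99 CPM in control, so reads of a shared stretch could belong to either gene.

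Lamp1 encodes a main glycoprotein of the lysosome membrane, whose appearance at the cell surface is used as a sign of granule release. Its deposited means were 73.0 CPM in Klrg1Cre against 73.9 CPM in control, a log2 ratio of -0.02 with an adjusted p of 0.954. No split of these means into whole reads was found, so the spread between its libraries is not known. The surface appearance of the protein is not measured by RNA.

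Of the 5 genes, 1 passed the authors' adjusted p of 0.05, as did 0.0589% of all genes. Of the 4 genes with known libraries, 4 had genotypes that did not overlap, against 37.6% of the 5351 genes with known libraries. Since this comparison chose the genes, nothing is read from either count. The directions were mixed: Nkg7 was above control, Ctsw, Gzma and Prf1 were below it, and the means of Lamp1 were 1.01-fold apart. Within libraries, the larger and smaller Klrg1Cre libraries held 1.86 and 1.24 Nkg7 reads for each Ctsw read, against 0.235 and 0.303 in the larger and smaller control libraries. Ctsw reads outnumbered Nkg7 reads in both control libraries, and Nkg7 reads outnumbered Ctsw reads in both Klrg1Cre libraries.

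**Figure D2:**
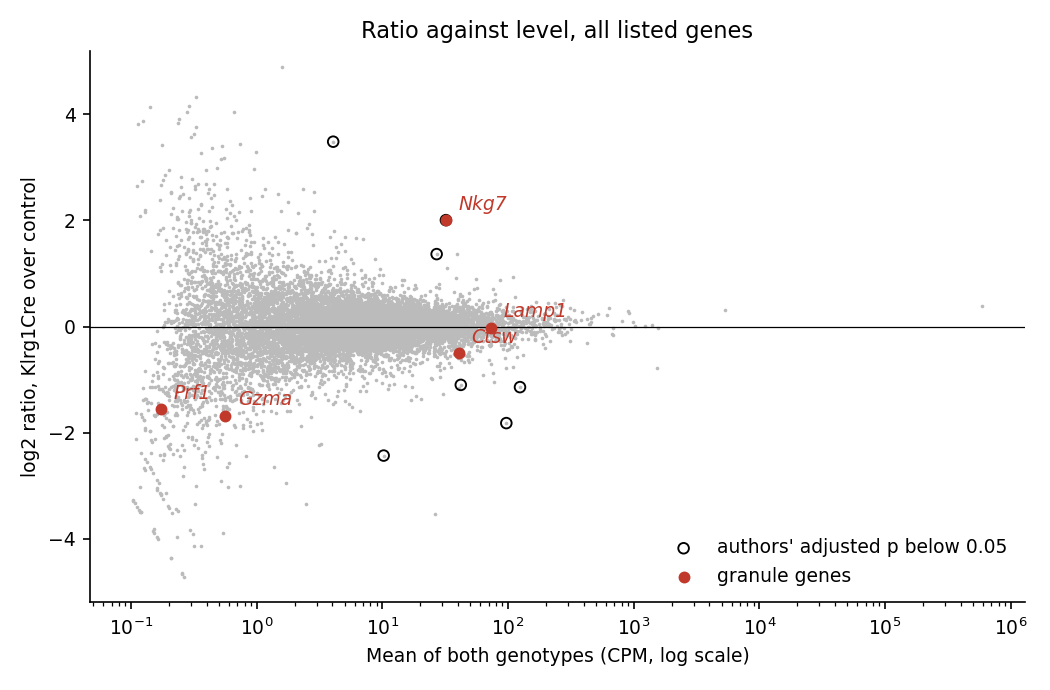
Log2 ratio of Klrg1Cre over control against the mean of both genotypes in CPM on a log axis, 1 point per gene. Red points are the granule genes and open circles the 7 genes with an authors' adjusted p below 0.05, and 59 genes beyond 5 on the log2 scale are not drawn. Nkg7 stands above the other genes of its level, Gzma and Prf1 lie at levels where ratios scatter widely, and Lamp1 lies on the line of no difference.

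Levels of different genes were compared per kilobase, with lengths taken as all exon bases of a gene in the GENCODE M21 annotation, which is of another build than the authors' mm9. Nkg7 had the highest level of the 5 genes in Klrg1Cre, 56.1 CPM per kb, followed by Lamp1 at 27.3, Ctsw at 17.8, Gzma at 0.266 and Prf1 at 0.0340 CPM per kb. In control, Lamp1 came first at 27.6 CPM per kb, then Ctsw at 25.1, Nkg7 at 14.0, Gzma at 0.853 and Prf1 at 0.100 CPM per kb. Nkg7 thus lay above Ctsw in Klrg1Cre and below it in control. Its Klrg1Cre libraries, at 64.2 and 47.9 CPM per kb, lay above the 16.7 and 18.8 CPM per kb of Ctsw there. Its control libraries, at 12.2 and 15.7 CPM per kb, lay below the 25.2 and 25.1 CPM per kb of Ctsw. Gzma lay above Prf1 in every library. Lamp1 has no library values, so its place next to Ctsw and Nkg7 cannot be set against a spread. For scale, the T cell co-receptor gene Cd4 had 41.6 CPM per kb in Klrg1Cre and 37.2 CPM per kb in control.

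**Figure D3:**
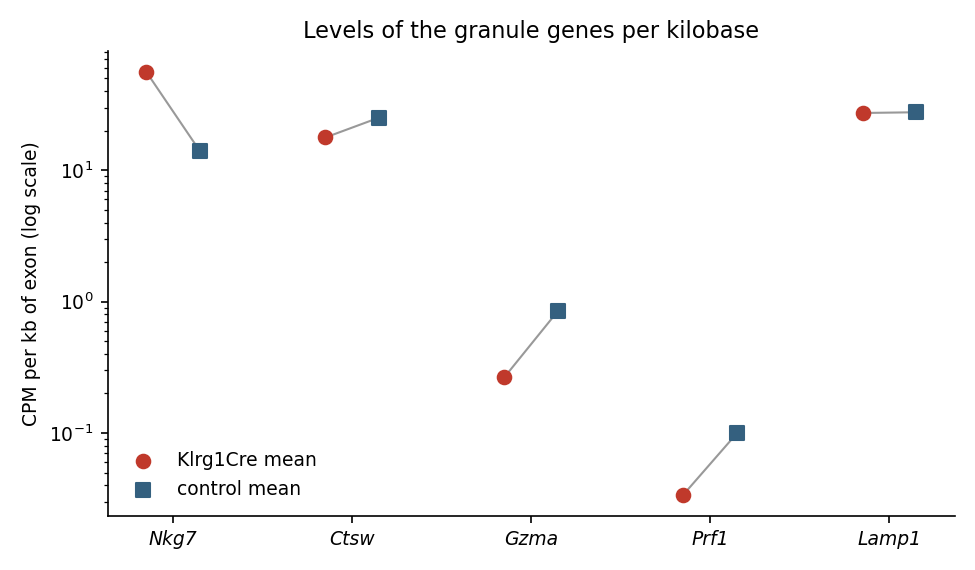
Deposited mean of each granule gene in CPM per kb of exon, on a log axis, with Klrg1Cre (circle) left of control (square). Nkg7 is the highest of the 5 in Klrg1Cre and the third in control, and Gzma and Prf1 are the lowest in both genotypes.

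The other genes of the pathway were counted from 7 lists: granzymes, granule matrix and protease inhibitors, lysosomal cathepsins, granule transport and release, lysosome membrane proteins, death ligands and transcription factors of cytotoxic lymphocytes. Of their 74 genes, 63 were listed in the table and 0 passed the authors' adjusted p of 0.05, where 7 of all 11883 genes did. At an unadjusted p below 0.05, 6 had higher means in Klrg1Cre and 2 lower, against 3.72% and 3.37% of all genes. Higher and lower means were about even, 32 and 31.

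Of the 9 other granzyme genes, 3 were listed. Gzmb, encoding granzyme B, which cleaves caspases in the target cell, had 14.4 and 22.5 CPM in the larger and smaller Klrg1Cre libraries and 16.5 and 15.2 CPM in the control libraries. Its control libraries lay between those of Klrg1Cre, and the deposited means were 18.4 CPM in Klrg1Cre and 15.9 CPM in control (adjusted p = 0.887). Per kilobase Gzmb stood at 12.8 CPM in Klrg1Cre and 11.0 CPM in control, above Gzma in both. Gzmg had 0.782 CPM in Klrg1Cre and 1 read in the control libraries, and Gzmd had 0.349 CPM in Klrg1Cre and was listed at 0 in control. Both belong to a cluster of near-identical granzyme genes among which reads may be split, and their adjusted p were 0.961 and 0.962.

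The granule matrix and inhibitor genes were all listed, 5 with higher and 2 with lower means in Klrg1Cre, and their median log2 ratio was 0.10 against 0.01 for all genes. Srgn, encoding the proteoglycan serglycin that packs granzymes, had deposited means of 135.1 CPM in Klrg1Cre cells and 138 CPM in control cells. Serpinb6a, a serine protease inhibitor gene, had 15.3 and 14.6 CPM in the same order. Serpinb1a, encoding an inhibitor of granule proteases of neutrophils, was the one at an unadjusted p below 0.05 (adjusted p = 0.348). It had 14.5 and 17.2 CPM in the Klrg1Cre libraries and 8.84 and 10.0 CPM in the control libraries, without overlap.

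Of 12 lysosomal cathepsin genes, relatives in function of Ctsw, 11 were listed, 6 with higher and 5 with lower means in Klrg1Cre, and 0 had an unadjusted p below 0.05. Their median log2 ratio was 0.01. Ctsd, encoding an aspartic protease of lysosomes, had 538 and 308 CPM in the larger and smaller Klrg1Cre libraries and 332 and 370 CPM in the control libraries. The Klrg1Cre libraries enclosed those of control. Ctsb, a cysteine protease gene, had deposited means of 311 CPM in Klrg1Cre cells and 299 CPM in control cells. Both had higher deposited means in Klrg1Cre, by less than the spread between libraries for Ctsd. Ctsh, a cysteine protease gene, had the lowest ratio of the list, 0.653, with 10.3 CPM in Klrg1Cre and 15.8 CPM in control and an unadjusted p of 0.0597, against a ratio of 0.706 for Ctsw. Differences between these genes and Ctsw were not tested.

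Of 21 genes for granule transport and release, 19 were listed, with a median log2 ratio of -0.04. At an unadjusted p below 0.05, 2 had higher and 1 lower means in Klrg1Cre, against 3.72% and 3.37% of all genes. Stxbp2, encoding a syntaxin-binding protein needed for granule fusion, had deposited means of 42.3 CPM in Klrg1Cre cells and 33.4 CPM in control cells (adjusted p = 0.655). Sytl2, encoding a partner of the granule GTPase Rab27a, had 23.5 CPM in Klrg1Cre and 16.3 CPM in control (adjusted p = 0.637). Arl8b, encoding a GTPase that couples lysosomes to kinesin, was the lower one, with 14.0 and 13.1 CPM in the Klrg1Cre libraries and 18.0 and 19.1 CPM in the control libraries (adjusted p = 0.612). The 2 most abundant genes, Vamp8, a gene of the fusion machinery, and Ap3d1, of a sorting adaptor, had deposited ratios of 1.05 and 1.20.

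Of 13 further lysosome membrane genes, 12 were listed, 2 with higher and 10 with lower means in Klrg1Cre, and their median log2 ratio was -0.09. Sidt2, encoding a lysosomal protein that takes up nucleic acids, was the one at an unadjusted p below 0.05, with 45.1 CPM in Klrg1Cre and 33.5 CPM in control (adjusted p = 0.551). Laptm5, a lysosomal membrane protein gene of blood cells, had 685 and 657 CPM in the Klrg1Cre libraries and 715 and 654 CPM in the control libraries. Cd63, encoding a tetraspanin of lysosomes and granules, had 46.8 and 30.9 CPM in Klrg1Cre, against 38.0 and 43.7 CPM in control. Both overlapped between genotypes. Of lower-lying genes of the list, Lamp2, a relative of Lamp1, had 26.6 CPM in Klrg1Cre and 33.0 CPM in control, and Laptm4a had 20.7 CPM in Klrg1Cre and 27.0 CPM in control, with unadjusted p of 0.148 and 0.0602.

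All 4 death ligand genes were listed and 0 had an unadjusted p below 0.05. Tnfsf10, encoding TRAIL, had 20.0 and 17.0 CPM in the Klrg1Cre libraries and 22.3 and 20.6 CPM in the control libraries. Tnf, encoding tumour necrosis factor, had deposited means of 4.73 CPM in Klrg1Cre cells and 4.40 CPM in control cells.

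Of 8 transcription factor genes of cytotoxic lymphocytes, 7 were listed, with a median log2 ratio of 0.36, the highest of those granule lists that had at least 5 genes listed. The 7 include Zbtb7b, known mainly as a factor of CD4 T cells, which had a log2 ratio of 0.38 (adjusted p = 0.709). Eomes was not among the listed genes. At an unadjusted p below 0.05, Zeb2 and Id2 had higher means and Hopx a lower one, with adjusted p from 0.606 to 0.612. Of all genes, 3.72% were higher and 3.37% lower at that p. Id2, an inhibitor of E proteins that lymphoid cells of many kinds express, had 178 and 160.2 CPM in the Klrg1Cre libraries and 136 and 132 CPM in the control libraries. Zeb2, which acts in late effector T cells and NK cells, had deposited means of 26.3 CPM in Klrg1Cre cells and 17.4 CPM in control cells. Hopx, a small homeodomain protein gene, had 2.58 CPM in Klrg1Cre and 4.45 CPM in control.

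**Figure D4:**
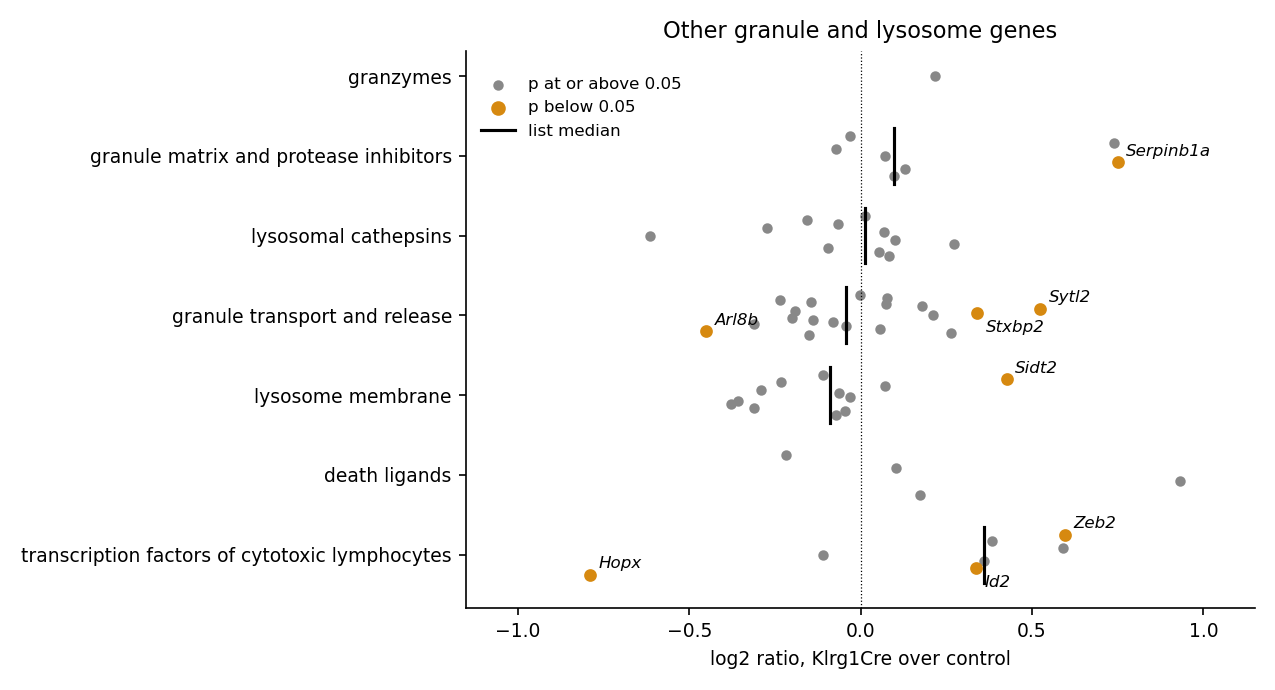
Log2 ratio of Klrg1Cre over control for each listed gene of 7 lists of granule and lysosome genes, 1 point per gene, with the list median as a bar where at least 5 genes were listed. Named genes in orange had an unadjusted p below 0.05 in the authors' table, and Gzmd and Gzmg lie outside the axis, making 2 points not drawn. The medians lie between -0.09 and 0.36. The axis ends below the 2.01 of Nkg7, and Gzmd and Gzmg, at means below 1 CPM, have higher log2 ratios, 11.8 and 5.70.

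Among 2687 other genes with known libraries and an average of 5 CPM or more, the 5 whose pattern over the 4 libraries was most like that of Nkg7 were Tbc1d2, Itgb1, Ckb, Anxa2 and Nfkb1. Likeness was the Euclidean distance between log2(CPM + 1) values centred per gene, which was 0.92 to 1.11 for these genes against a median of 1.96 for all compared. Tbc1d2, encoding a GTPase-activating protein for Rab proteins, had 6.65 and 7.96 CPM in the larger and smaller Klrg1Cre libraries and 2.70 and 2.75 CPM in the control libraries. Itgb1, encoding integrin beta-1, had 51.2 and 62.4 CPM in Klrg1Cre, against 27.0 and 17.1 CPM in control. Ckb, encoding a creatine kinase, had 12.2 and 13.7 CPM in Klrg1Cre, against 5.21 and 6.95 CPM in control. In all 3 genes both Klrg1Cre libraries lay above both control libraries, which is what the choice by likeness sets. Anxa2, an annexin gene, had 77.1 and 68.6 CPM in Klrg1Cre, against 37.1 and 41.3 CPM in control. Nfkb1, encoding an NF-kappaB subunit, had 113 and 110.3 CPM in Klrg1Cre, against 59.5 and 62.8 CPM in control. The deposited ratios of these 5 genes ran from 1.83 to 2.68, below the 4.02 of Nkg7, and their adjusted p from 0.0635 to 0.209.

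Markers of other cells that express granule genes were set beside the result. Of 20 genes taken as NK cell markers, 4 were listed, and Ncr1, Klrb1c, Klrk1 and Klrd1 were not among the listed genes. Cma1, a mast cell protease gene, was among the 20 and was not listed either. The 4 listed summed to 45.5 and 26.7 CPM in the larger and smaller Klrg1Cre libraries and to 28.4 and 37.6 CPM in the control libraries. These sums overlapped between genotypes, and most of them came from Fcer1g and Tyrobp, which myeloid cells also express. Cd244a and Cd160, the other pair, each had a deposited mean below 1 CPM in both genotypes. Within each genotype the library with more Nkg7 was also the one with the higher sum. Ctsd and the partial macrophage marker sums given below had the same order. With 2 libraries per genotype, nothing is read from this order. Of 3 CD8 T cell markers, Cd8b1 was listed, at 1.88 and 4.26 CPM in the Klrg1Cre libraries and 2.73 and 3.13 CPM in the control libraries, and Cd8a was not among the listed genes. Whether NK or CD8 T cells had a part in the levels of Nkg7 was not tested.

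The 5 Th2 markers were listed, 4 with higher and 1 with lower means in Klrg1Cre. While 0 passed adjustment, 3 of the higher had an unadjusted p below 0.05, where 3.72% of all genes were higher at that p. These 3 markers were Gata3 and the cytokine genes Il5 and Il13. Il5 had 8.92 and 15.8 CPM in the larger and smaller Klrg1Cre libraries and 5.003 and 5.16 CPM in the control libraries, and Il13 had 11.3 and 13.5 CPM in the Klrg1Cre libraries and 6.68 and 5.98 CPM in the control libraries. In both, as in Nkg7, the Klrg1Cre libraries lay above those of control, with adjusted p of 0.289 for Il5 and 0.265 for Il13. Libraries without overlap, in either direction, were found for 37.6% of the 5351 genes with known libraries. The part of a difference in Th2 state or in the sorted cells in the level of Nkg7 was not tested.

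All 16 macrophage markers were listed, 7 with higher and 9 with lower means in Klrg1Cre, with a median log2 ratio of -0.07. They summed to 1567 CPM in Klrg1Cre and 2342 CPM in control, of which Chil3, a chitinase-like protein gene, made up 1124 and 1932 CPM. Without Chil3 the sum was the higher one in Klrg1Cre, 442 CPM against 409 CPM in control. Most of it was Lyz2, at 396 CPM in Klrg1Cre and 364 CPM in control, with an authors' unadjusted p of 0.70. Macrophages are rich in lysosomes, so these sums stand beside Lamp1 and the cathepsins. The 10 macrophage markers with known libraries do not include Chil3 or Lyz2, which hold most of the full sum. These 10 summed to 44.5 and 31.2 CPM in the larger and smaller Klrg1Cre libraries and to 34.3 and 40.0 CPM in the control libraries. The order of these partial sums is that of Ctsd and of the NK marker sums, and within each genotype also that of Nkg7. Of 8 regulatory T cell markers, 8 had lower means in Klrg1Cre, as did 5869 of all 11883 genes. While 0 passed adjustment, 7 of these markers were lower at an unadjusted p below 0.05, against 3.37% of all genes. The 8 markers summed to 182 CPM in Klrg1Cre and 322 CPM in control, with Foxp3 the highest. Of 6 ILC2 markers, which summed to 111 CPM in Klrg1Cre and 190 CPM in control, 2 had higher and 2 lower means at an unadjusted p below 0.05 and 0 passed adjustment. The lower ones were Arg1, the highest, at 53.9 CPM in Klrg1Cre and 98.5 CPM in control, and Klrg1, the gene that the Cre allele is named for. Klrg1 had 1.38 and 7.003 CPM in the larger and smaller Klrg1Cre libraries and 41.97 and 54.9 CPM in the control libraries, with deposited means 11.5-fold lower in Klrg1Cre (adjusted p = 0.0701). The higher ones were Nmur1, a neuromedin receptor gene, with a deposited ratio of 3.22, and Calca, encoding the precursor of a neuropeptide, with 1.83. Without Arg1 and Klrg1 the other 4 summed to 53.0 CPM in Klrg1Cre and 42.8 CPM in control. That sum leaves out the 2 genes lower at that p and keeps the 2 higher ones, so its direction depends on this choice. Il17rb and Il9r, the remaining 2, had deposited means of 12.1 and 14.8 CPM in Klrg1Cre, against 14.2 and 16.1 CPM in control. Basophil and mast cell markers were 0 of 5 listed. The 3 of 8 eosinophil and neutrophil markers listed summed to 7.26 CPM in Klrg1Cre and 4.18 CPM in control, with S100a8 the highest, and the 4 B cell markers to 1.72 and 3.18 CPM, with Cd79b the highest. The part of any of these cells in the levels of the granule genes was not tested.

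On the chromosome, the nearest protein-coding genes in the RefSeq order are Lim2 and Cldnd2 for Nkg7, and neither is among the listed genes. For Lamp1, Cul4a was listed at 8.36 CPM in Klrg1Cre and 9.36 CPM in control. For Prf1, Pald1 was listed at 0.612 CPM in Klrg1Cre and 0.616 CPM in control. For Ctsw, Efemp2 was listed at 1.35 CPM in Klrg1Cre and 0.383 CPM in control, with an unadjusted p of 0.0131 and an adjusted p of 0.574.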

How the data were processed

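RNA was sequenced from 4 samples, 2 per genotype. The submitters' processing notes name the aligner STAR, the software Partek and the build mm9, without versions. The deposited means are in CPM, with an offset of 0.0001. The deposited p-value and its adjusted form come from a model not given in the sources used here; the adjusted form equalled a Benjamini-Hochberg adjustment over all 11883 genes. The deposited ratio equalled the quotient of the means, the signed fold change (treated as a score) was deposited beside it, and the deposited signal per gene, headed total counts, was 2 times the means' sum in all rows.

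Library totals and whole reads were worked out as the 1 pair of whole numbers per genotype that gave the deposited mean to within 1e-09 reads, which was tried up to 20000 CPM and found in both genotypes for 5351 genes. This was tested on simulated means. Lengths, gene order and sequences came from GENCODE M21 and RefSeq (GRCm38). The planned count model did not apply, because the table holds means, so the authors' p-values were quoted; limma 3.58.1 in R 4.3.3 on log2(CPM + 1), with a trended variance, served as an alternative on 4242 genes. Other work used Python 3.11.15 and scipy 1.17.1.

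The members and lists were chosen with earlier results of these data known. Named genes were the members and, in each granule list, genes at an unadjusted p below 0.05 and the 2 most abundant. They were also the most abundant gene of each marker list and the 5 nearest to Nkg7. The authors' adjusted p called 7 genes, namely Nkg7, Itgae, Matn2, Tff1, Ifi27l2a, Sema4a and Trerf1. Neighbouring genes were named for their position. Ctsh, Lamp2, Laptm4a, Zbtb7b, Lyz2, Il5, Il13, Klrg1, Nmur1, Calca, Il17rb and Il9r were named after their values were seen.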

Additional observations from a re-analysis of the deposited data

How the results depend on the processing

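The log2 ratio of Nkg7 was 2.01, and 1.66 with a pseudocount of 5 CPM. It was 1.98 when scaled to the listed genes other than Rn45s. Leaving out 1 library at a time gave 1.78 to 2.20. For Ctsw it was -0.50, with -0.59 to -0.42 when 1 library was left out. For Gzma it was -1.68, with -2.16 to -1.32 when 1 library was left out, and -0.55 and -0.15 with pseudocounts of 1 and 5 CPM. For Prf1 it was -1.56, with -2.75 to -0.91 when 1 library was left out: -2.75 without the smaller Klrg1Cre library, -0.91 without the larger one, -1.10 without the larger control library and -1.91 without the smaller. With pseudocounts of 1 and 5 CPM it was -0.21 and -0.048, so the size for Gzma and Prf1 depends on the pseudocount. No direction of these 4 genes turned, which their values set in advance. Their libraries do not overlap between genotypes, a pseudocount keeps the sign, and scaling to listed genes shifted every log2 ratio by just -0.03. Lamp1 lay between -0.04 and -0.02. The count of genes called was 7, and 16 when the authors' p was readjusted over the 6300 genes averaging 5 CPM or more. On 4242 genes with known libraries limma called 7, of which 1, Nkg7, was called by the authors, who called 1 of these 4242. Nkg7 was chosen on this same contrast of the same libraries, so nothing is read from its call. The median log2 ratio of the cathepsins turned to -0.01 when scaled to listed genes other than Rn45s and to -0.03 over genes of at least 5 CPM, within its spread. No medians are given for granzymes and death ligands, with fewer than 5 genes listed. No paired analysis was possible because the deposited columns are genotype means that carry no replicate numbers. Depth limits Prf1 and Gzma, at 20 and 66 reads over the 4 libraries.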
